A study of Mus musculus with 22 samples.

Results

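The genes described here are 46 genes of the lysosome, the acid compartment in which a cell breaks down what it has taken up. They were chosen by name, as subunits of the proton pump, hydrolases, activator proteins, membrane proteins and 1 transcription factor. Of the 46, 45 were measured, out of 19938 genes analysed. Atp6v0c, which forms the ring of the pump, was not analysed here. A macrophage that clears dead muscle depends on this compartment. A pump of many subunits, the vacuolar ATPase, spends ATP to bring protons into the lysosome, and the hydrolases, which cut sugars, sulfates, lipids and proteins, work at the resulting low pH. Many of their genes share a short promoter motif that is bound by TFEB, a transcription factor of the lysosome, and its relatives.

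Cardiotoxin, a venom component that destroys muscle fibres and so sets off regeneration, was given into the tibialis anterior muscle of C57B6/J mice. Leukocytes carrying CD45 were taken from the muscle 1, 2, 4 or 8 days later and sorted by antibodies to Gr1 and Cx3cr1 into Gr1+/Cx3cr1low cells, called Gr1-positive here, and Gr1-/Cx3cr1high cells, called Gr1-negative. The labels also describe these cells as Ly6C-positive with low F4/80 and Ly6C-negative with high F4/80. Their RNA was hybridised to 22 Affymetrix arrays, 3 for each subset on each day except for a single one for the Gr1-positive cells of day 8. Every group, the earliest included, came from injured muscle, so day 1 is a starting point and not an uninjured control. The age of the mice, and whether a replicate pools several, is not given in the sources used here.

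Values are log2 signals, so that a difference of 1 is a doubling, and array values are given in the order of the replicate numbers. Differences are given ± SE and levels ± SD with n = 3. A gene was called at an adjusted p under 0.05 in limma, a linear model fitted to all 19938 genes. The 22 array medians lay between 7.02 and 7.18. The precision is set by how few arrays each group holds. The members were bright, with means over all arrays from 8.51 to 13.15 against a median of 7.38 over all genes. The 10 macrophage markers measured averaged 11.39 to 12.15 in every array, and none of the groups lacked them. Day 2 Gr1-positive replicate 1 stood apart from the other arrays of its group by a root mean square of 0.381, against 0.154 to 0.285 in the other arrays.

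Between day 1 and day 4 most hydrolase genes and Tfeb rose in both subsets, while subunits of the V1 sector of the pump, the part that splits ATP, fell or did not pass the test, except for Atp6v1f in Gr1-negative cells. In Gr1-positive cells 22 of the 45 members rose and 4 fell, where 16.2% of all genes rose and 9.42% fell. In Gr1-negative cells 20 rose and 3 fell, where 15.5% of all genes rose and 8.67% fell. Among the 2606 genes with a mean signal of 10 or more, a threshold chosen after the data were seen, 20.6% rose and 26.4% fell in Gr1-positive cells. In Gr1-negative cells 18.5% of these bright genes rose and 22.1% fell. The median change of the members was 0.17 in each subset, against 0.00 and -0.06 over all genes in Gr1-positive and Gr1-negative cells. A total of 17 members rose in both subsets, 3 fell in both, and 16 were called in neither. The 31 members outside the pump held 20 of the 22 rises in Gr1-positive cells and 18 of the 20 in Gr1-negative cells, and all of the falls were among the 14 pump members. All 14 pump members were bright genes, with means from 10.18 to 12.10. The 4 of 14 and 3 of 14 that fell lay near the 26.4% and 22.1% of the bright genes.

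**Figure D1:**
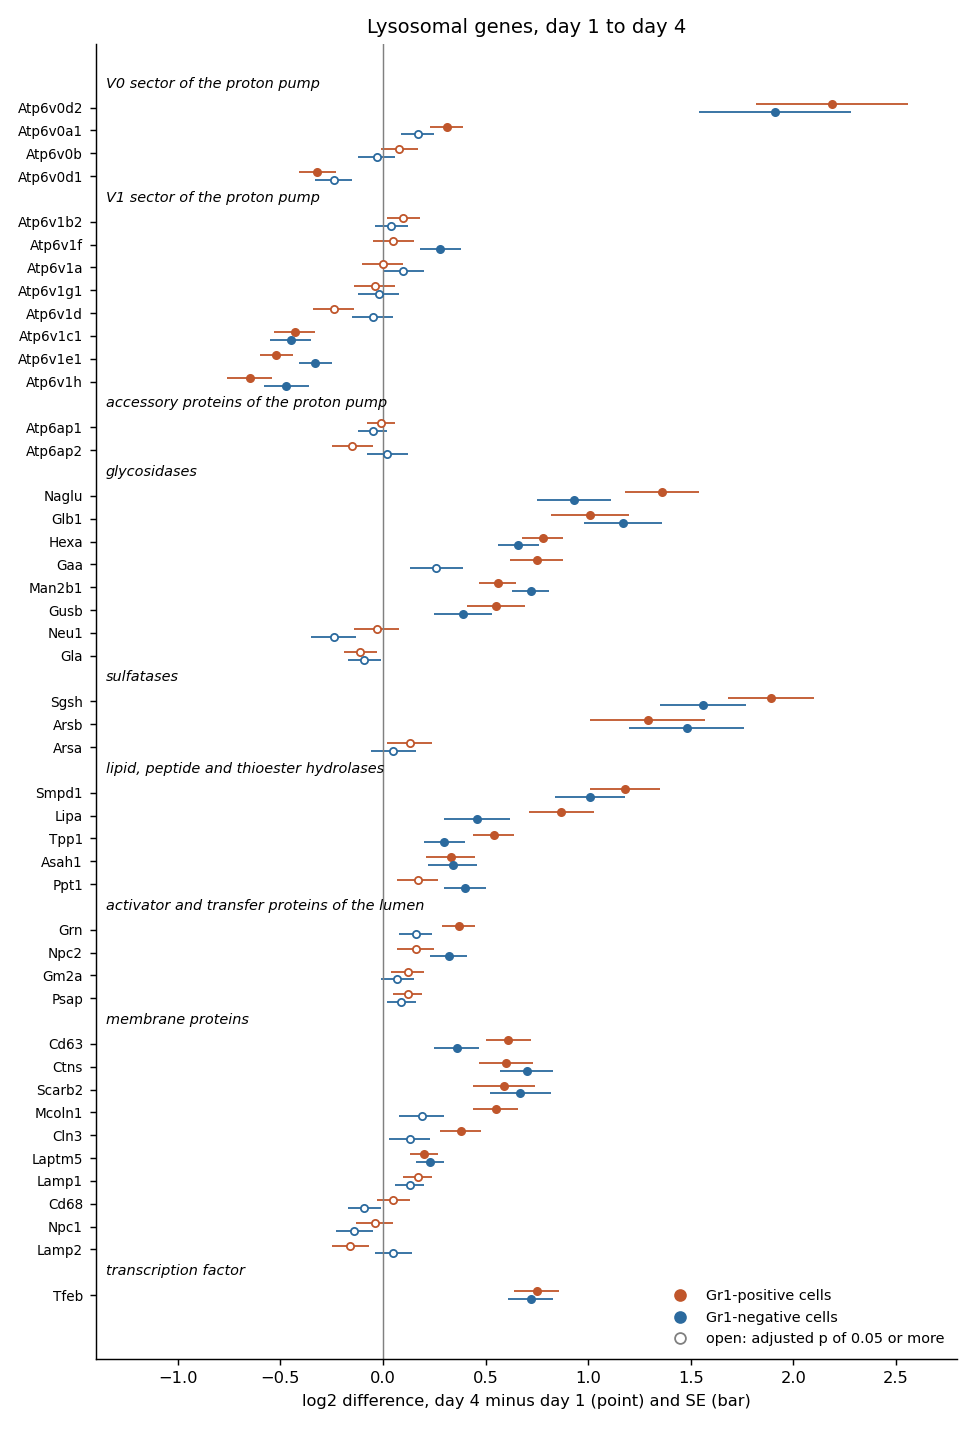
Log2 difference between day 4 and day 1 (x axis, point, with SE as a bar) for each of the 45 measured genes, grouped by role, in Gr1-positive (orange) and Gr1-negative (blue) cells; filled points passed the test at an adjusted p under 0.05. Atp6v0d2 lies farthest to the right at 2.19 and 1.91, and Atp6v1h farthest to the left at -0.65 and -0.47.

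The sorted cells also changed in other marker genes over the same days. From day 1 to day 4 in Gr1-positive cells, 10 of 11 T and NK cell markers rose, and their mean per array went from between 6.5 and 6.64 to between 8.46 and 10.17. In Gr1-negative cells 5 of 11 rose, from means of 7.32 to 7.73 to means of 7.97 to 9.12. Dendritic cell markers rose in 7 of 10 genes in Gr1-positive cells (means of 7.17 to 7.26, then 8.62 to 8.87) and in 6 of 10 in Gr1-negative cells (8.41 to 9.02, then 9.24 to 9.85). Neutrophil markers fell in 7 of 14 genes in Gr1-positive cells (means of 7.98 to 8.3, then 7.01 to 7.59) and in 6 of 14 in Gr1-negative cells (7.16 to 7.54, then 6.79 to 6.93). Of 13 muscle markers 5 rose in each subset, and of 9 fibroblast markers 2 rose in Gr1-negative cells. Of the 10 macrophage markers 6 rose and 2 fell in each subset. The part of these changes in the lysosomal results was not tested, and in bulk samples fewer cells of a type and less RNA per cell cannot be told apart. Leaving out single arrays left 23 to 25 members called in Gr1-positive cells (19.6% to 23.8% of all genes) and 15 to 20 in Gr1-negative cells (18.9% to 23.7%). The 15 came without day 1 Gr1-negative replicate 1 (18.9%).

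The largest change of any member was that of Atp6v0d2, the d subunit of the membrane sector V0 that is best known from osteoclasts and macrophages. In Gr1-positive cells it read 8.43, 9.16 and 8.71 at day 1, 10.53, 9.61 and 9.48 at day 2, 11.38, 10.57 and 10.92 at day 4, and 10.84 in the array of day 8. In Gr1-negative cells it read 8.62, 10.12 and 8.91 at day 1, 11.33, 10.84 and 10.83 at day 2, 11.30, 11.08 and 11 at day 4, and 10.30, 10.53 and 11.57 at day 8. Every array of day 4 lay above every array of day 1, and at day 1 the second Gr1-negative array was the highest. The gene rose 4.56-fold in Gr1-positive cells (2.19 ± 0.37, limma adjusted p = 0.000159) and 3.76-fold in Gr1-negative cells (1.91 ± 0.37, limma adjusted p = 0.000626). Of 7 osteoclast markers, 1 rose in Gr1-positive cells, and 1 rose and 1 fell in Gr1-negative cells.

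Atp6v0d1, the other d subunit, which most tissues express, went the opposite way. Its Gr1-positive arrays read 11.41, 11.58 and 11.40 at day 1, 11.39, 11.57 and 11.59 at day 2, 11.19, 11.18 and 11.07 at day 4, and 10.89 at day 8. The Gr1-negative arrays read 11.36, 11.55 and 11.38 at day 1, 11.50, 11.63 and 11.70 at day 2, 11.15, 11.29 and 11.14 at day 4, and 11.03, 10.91 and 10.97 at day 8. The arrays of days 4 and 8 were below all arrays of days 1 and 2 in both subsets. By day 4 it fell by 0.32 in Gr1-positive cells (SE 0.09, limma adjusted p = 0.0095; 0.0592 without day 1 Gr1-positive replicate 2), and the difference in Gr1-negative cells was -0.24 ± 0.09 (limma adjusted p = 0.0534). From day 1 to day 8 in Gr1-negative cells it fell by 0.46 (SE 0.09, limma adjusted p = 0.000828).

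The 3 members that fell from day 1 to day 4 in both subsets all belong to the V1 sector. Atp6v1h encodes the H subunit, a regulator of the pump, Atp6v1e1 a subunit of its stalk, and Atp6v1c1 the C subunit at the junction of V1 and V0.

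In Gr1-positive cells Atp6v1h read 10.36, 10.26 and 10.46 at day 1, 10.55, 10.26 and 10.29 at day 2, 9.91, 9.64 and 9.57 at day 4, and 9.93 at day 8. Its Gr1-negative arrays read 10.40, 10.43 and 10.26 at day 1, 10.77, 10.52 and 10.59 at day 2, 9.96, 9.87 and 9.84 at day 4, and 10.06, 9.83 and 10.16 at day 8. All arrays of days 4 and 8 thus lay under all those of days 1 and 2. From day 1 to day 4 Atp6v1h fell by 0.65 (SE 0.11) in Gr1-positive cells and by 0.47 (SE 0.11) in Gr1-negative cells, with limma adjusted p-values of 0.000186 and 0.00333.

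Atp6v1e1 read 11.27, 11.13 and 11.11 in the Gr1-positive arrays of day 1, 11.08, 11.18 and 11.19 at day 2, 10.74, 10.68 and 10.53 at day 4, and 10.77 at day 8. The Gr1-negative arrays read 11.12, 11.05 and 10.99 at day 1, 11.21, 11.22 and 11.23 at day 2, 10.85, 10.67 and 10.66 at day 4, and 10.69, 10.55 and 10.72 at day 8. The early and late arrays did not overlap here either. By day 4 it fell by 0.52 (SE 0.08) and by 0.33 (SE 0.08), with limma adjusted p-values of 8.77e-05 and 0.00495.

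For Atp6v1c1 the Gr1-positive arrays read 11.24, 11.14 and 11.45 at day 1, 11.51, 11.41 and 11.31 at day 2, 10.82, 11.01 and 10.71 at day 4, and 10.86 at day 8. Its Gr1-negative arrays read 11.17, 11.42 and 11.40, then 11.63, 11.52 and 11.60, then 10.84, 10.92 and 10.88, and 11.06, 10.82 and 10.98 at day 8. It fell by 0.43 (SE 0.10, limma adjusted p = 0.00311) and by 0.45 (SE 0.10, limma adjusted p = 0.00249) from day 1 to day 4.

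Of the remaining pump members, few passed by day 4. Atp6v0a1, an isoform of the large a subunit of V0, rose by 0.31 ± 0.08 in Gr1-positive cells (limma adjusted p = 0.00993), and was not called without day 1 Gr1-positive replicate 1 (0.0541) or day 4 Gr1-positive replicate 3 (0.0539). Atp6v1f, a subunit of the central shaft, rose by 0.28 ± 0.10 in Gr1-negative cells (limma adjusted p = 0.0493), a call lost without any of 4 of the 6 arrays compared (adjusted p from 0.0511 to 0.231). That call was also lost with the mean of the gene's 2 probe sets (0.27, limma adjusted p = 0.0648) and with array quality weights (0.18, 0.176). A fit of the compared groups alone lost it too (0.28, 0.134). The A and B subunits of V1, Atp6v1a and Atp6v1b2, differed by 0.00 ± 0.10 and 0.10 ± 0.08 in Gr1-positive cells, without passing. In Gr1-negative cells they differed by 0.10 ± 0.10 and 0.04 ± 0.08, also without passing. Atp6v0b, Atp6v1d, Atp6v1g1 and the accessory proteins Atp6ap1 and Atp6ap2, which help to assemble the pump, did not pass either, with differences between -0.24 and 0.08. Another 10 pump subunits, most of them isoforms of other tissues, were not among the 46 genes. Of these 3 rose in Gr1-positive and 2 in Gr1-negative cells and none fell, the largest being Atp6v0a2, an a subunit isoform, with 0.50 ± 0.13 and 0.37 ± 0.13.

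**Figure D2:**
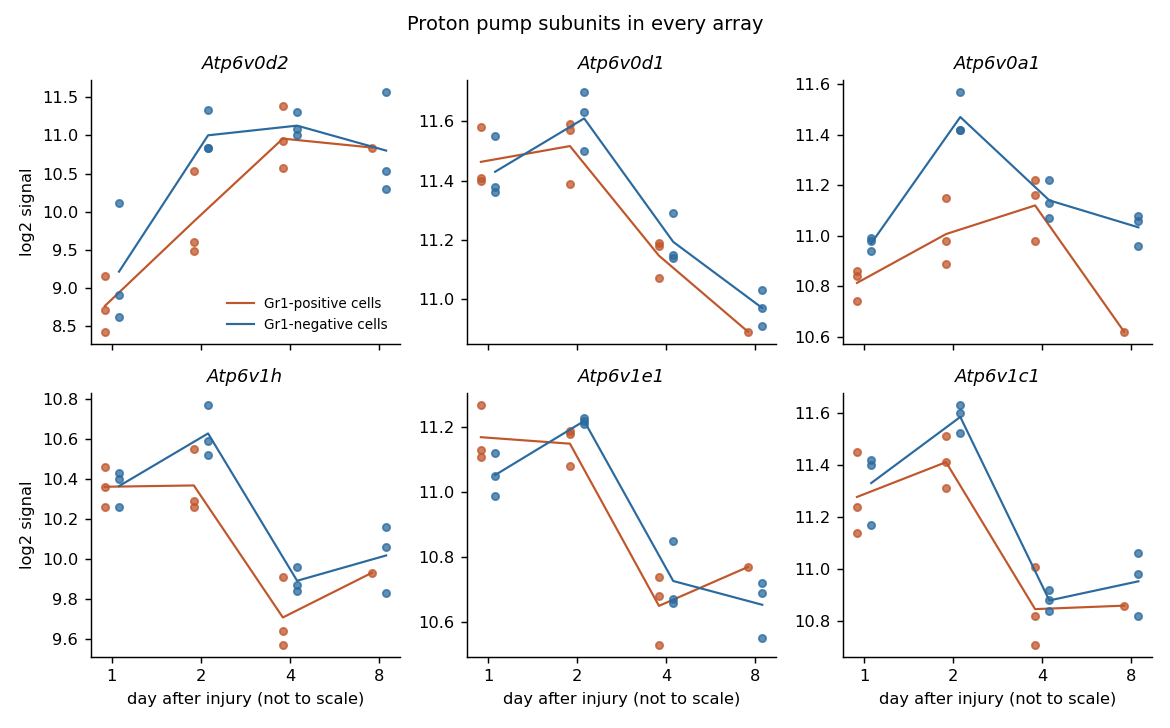
Log2 signal (y axis, a scale of its own in each panel) of 6 pump subunit genes by day after injury (x axis, not to scale) in Gr1-positive (orange) and Gr1-negative (blue) cells; each point is an array and lines join group means. Atp6v0d2 climbs after day 1, whereas Atp6v0d1, Atp6v1h, Atp6v1e1 and Atp6v1c1 lie lower in all arrays of days 4 and 8 than in those of days 1 and 2.

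Glycosidases, which remove single sugars from glycans, glycolipids and glycogen, rose in 6 of 8 genes in Gr1-positive cells and in 5 of 8 in Gr1-negative cells by day 4. Naglu removes a sugar from heparan sulfate, and its loss causes a form of Sanfilippo disease. Among Gr1-positive cells it read 8.53, 9.20 and 9.24 at day 1, 9.34, 9.79 and 9.75 at day 2, 10.33, 10.31 and 10.41 at day 4, and 9.27 at day 8. Among Gr1-negative cells the readings were 8.96, 9.44 and 9.45 at day 1, 10.01, 10.30 and 10.30 at day 2, 10.11, 10.30 and 10.23 at day 4, and 9.48, 9.20 and 9.74 at day 8. The Gr1-negative arrays of day 2 and day 4 overlapped, and in both subsets every array of day 8 lay below all arrays of day 4. The rise from day 1 to day 4 was 2.57-fold in Gr1-positive cells (1.36 ± 0.18, limma adjusted p = 1.65e-05) and 1.91-fold in Gr1-negative cells (0.93 ± 0.18, limma adjusted p = 0.000721).

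Glb1 encodes the acid beta-galactosidase. Its Gr1-positive arrays read 8.86, 9.16 and 9.37 at day 1, 9.06, 9.34 and 9.40 at day 2, 10.41, 9.68 and 10.34 at day 4, and 9.02 at day 8. Its Gr1-negative arrays read 8.87, 9.27 and 9.47 at day 1, 9.74, 9.84 and 9.93 at day 2, 10.50, 10.08 and 10.54 at day 4, and 9.54, 9.75 and 9.63 at day 8. Day 4 was highest in both subsets, with replicate 2 the lowest array of that day in each. Glb1 rose 2.02-fold (1.01 ± 0.19, limma adjusted p = 0.000407) and 2.25-fold (1.17 ± 0.19, limma adjusted p = 0.000118) from day 1 to day 4.

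Man2b1, the acid alpha-mannosidase, read 11.66, 11.68 and 11.48 in Gr1-positive cells at day 1, 11.55, 11.73 and 11.69 at day 2, 12.23, 12.08 and 12.17 at day 4, and 11.84 at day 8. For Gr1-negative cells the values were 11.37, 11.39 and 11.58, then 11.70, 11.75 and 11.76, then 12.14, 12.17 and 12.20, and 11.72, 11.88 and 11.95 at day 8. The arrays of day 4 were the highest in both subsets and spread little. It rose by 0.56 ± 0.09 and 0.72 ± 0.09 from day 1 to day 4, with limma adjusted p-values of 6.76e-05 and 5.65e-06.

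Hexa, a chain of beta-hexosaminidase, rose by 0.78 ± 0.10 and 0.66 ± 0.10, and Gusb, the beta-glucuronidase, by 0.55 ± 0.14 and 0.39 ± 0.14, in Gr1-positive and Gr1-negative cells. Gaa, which breaks down glycogen, rose by 0.75 ± 0.13 in Gr1-positive cells (limma adjusted p = 0.000256), and its difference of 0.26 ± 0.13 in Gr1-negative cells did not pass (0.176). The sialidase gene Neu1 and Gla, an alpha-galactosidase, did not pass in either subset, with differences of -0.03 ± 0.11 and -0.11 ± 0.08 in Gr1-positive cells and -0.24 ± 0.11 and -0.09 ± 0.08 in Gr1-negative cells.

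Of the 3 sulfatases, Sgsh and Arsb rose in both subsets, while Arsa did not pass. Sgsh removes sulfate from heparan sulfate and so acts on the same chain as Naglu. In Gr1-positive cells it read 7.71, 7.89 and 8.56 at day 1, 8.25, 9.06 and 8.81 at day 2, 10.12, 9.71 and 10 at day 4, and 9.37 at day 8. On the Gr1-negative side the arrays read 8.14, 8.29 and 8.49 at day 1, 9.01, 9.52 and 9.26 at day 2, 9.92, 9.77 and 9.92 at day 4, and 8.93, 9.33 and 9.46 at day 8. The days formed separate steps in Gr1-negative cells from day 1 to day 4, whereas days 1 and 2 overlapped in Gr1-positive cells. Sgsh rose 3.71-fold (1.89 ± 0.21, limma adjusted p = 3.44e-06) and 2.96-fold (1.56 ± 0.21, limma adjusted p = 2.69e-05) by day 4.

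Arsb, the enzyme that removes sulfate from dermatan and chondroitin sulfate, read 8.84, 9.82 and 8.23 in Gr1-positive cells at day 1, 8.80, 8.94 and 8.70 at day 2, 10.55, 10.17 and 10.03 at day 4, and 9.71 at day 8. In Gr1-negative cells it read 8.48, 9.31 and 9.16 at day 1, 9.74, 9.67 and 9.54 at day 2, 10.66, 10.36 and 10.36 at day 4, and 10.23, 9.78 and 10.26 at day 8. The second Gr1-positive array of day 1 stood well above the others, at a level above all arrays of day 2. Arsb rose by 1.29 ± 0.28 and 1.48 ± 0.28 by day 4, with limma adjusted p-values of 0.0016 and 0.000532. Arsa, the enzyme that removes sulfate from the myelin lipid sulfatide, differed by 0.13 ± 0.11 and 0.05 ± 0.11.

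Enzymes acting on lipids, peptides and thioesters rose in 4 of 5 genes in Gr1-positive cells and in 5 of 5 in Gr1-negative cells. Smpd1, the acid sphingomyelinase, read 8.38, 8.78 and 8.85 in Gr1-positive cells at day 1, 8.55, 9.24 and 9.10 at day 2, 9.99, 9.85 and 9.72 at day 4, and 9.19 at day 8. The Gr1-negative arrays read 8.61, 9.11 and 9.11, then 9.56, 9.76 and 9.76, then 10.09, 9.90 and 9.86, and 9.07, 9.37 and 9.55 at day 8. Day 4 was the highest day in both subsets, and by day 2 only the Gr1-negative arrays lay above all of their day 1 arrays. It rose 2.27-fold (1.18 ± 0.17, limma adjusted p = 4.82e-05) and 2.01-fold (1.01 ± 0.17, limma adjusted p = 0.000253).

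Tpp1, a peptidase that releases tripeptides, read 10.82, 11.15 and 11.23 in Gr1-positive cells at day 1, 11.19, 11.39 and 11.24 at day 2, 11.60, 11.57 and 11.66 at day 4, and 11.02 at day 8. Its Gr1-negative arrays read 11.24, 11.38 and 11.30, then 11.60, 11.72 and 11.73, then 11.57, 11.63 and 11.63, and 11.10, 11.37 and 11.41 at day 8. The Gr1-negative level of day 2 was not exceeded at day 4, and the level of day 8 overlapped that of day 1. It rose by 0.54 ± 0.10 (limma adjusted p = 0.000445) and 0.30 ± 0.10 (limma adjusted p = 0.0352).

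Ppt1, the enzyme that removes fatty acids from proteins, read 11.53, 11.54 and 11.60 in Gr1-positive cells at day 1, 11.53, 11.74 and 11.69 at day 2, 11.69, 11.79 and 11.69 at day 4, and 11.02 at day 8. Among Gr1-negative cells the readings were 11.20, 11.46 and 11.63, then 11.56, 11.61 and 11.61, then 11.80, 11.84 and 11.84, and 11.23, 11.49 and 11.48 at day 8. The single Gr1-positive array of day 8 was lower than every other array of the gene. Ppt1 rose by 0.40 ± 0.10 in Gr1-negative cells (limma adjusted p = 0.0048), and its difference of 0.17 ± 0.10 in Gr1-positive cells did not pass. Lipa, the acid lipase that frees cholesterol from its esters, rose by 0.87 ± 0.16 and 0.46 ± 0.16, and Asah1, the acid ceramidase, by 0.33 ± 0.12 and 0.34 ± 0.12.

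The helper proteins of the lumen changed little. Of 4, progranulin (Grn) rose by 0.37 ± 0.08 in Gr1-positive cells and the cholesterol carrier Npc2 by 0.32 ± 0.09 in Gr1-negative cells. Psap, the precursor of the saposins that present lipids to hydrolases, stood at 13.09 ± 0.10 in Gr1-positive cells at day 1 and at 13.21 ± 0.04 at day 4. Gm2a, which presents a ganglioside to hexosaminidase, differed by 0.12 ± 0.08 and 0.07 ± 0.08.

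**Figure D3:**
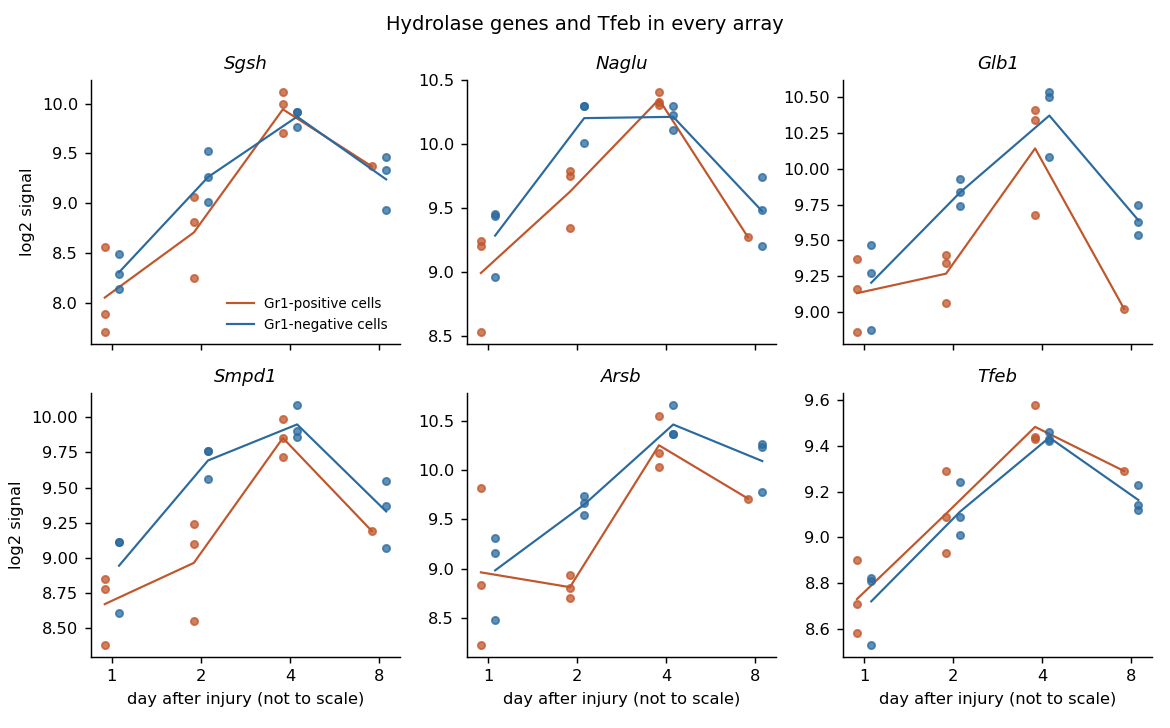
Log2 signal (y axis, a scale of its own in each panel) of 5 hydrolase genes and Tfeb by day after injury (x axis, not to scale) in Gr1-positive (orange) and Gr1-negative (blue) cells; each point is an array and lines join group means. All 6 genes are higher in every array of day 4 than in those of day 1 of the same subset, and every array of day 8 lies below all those of day 4.

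Tfeb, the transcription factor among the members, rose alongside the hydrolases. Its Gr1-positive arrays read 8.58, 8.90 and 8.71 at day 1, 9.09, 9.29 and 8.93 at day 2, 9.44, 9.58 and 9.43 at day 4, and 9.29 at day 8. For Gr1-negative cells the values were 8.53, 8.81 and 8.82 at day 1, 9.09, 9.24 and 9.01 at day 2, 9.43, 9.46 and 9.42 at day 4, and 9.23, 9.12 and 9.14 at day 8. The arrays of days 1, 2 and 4 did not overlap in either subset, and those of day 8 fell among the values of day 2. The gain by day 4 was 1.69-fold in Gr1-positive cells (0.75 ± 0.11, limma adjusted p = 2.91e-05) and 1.65-fold in Gr1-negative cells (0.72 ± 0.11, limma adjusted p = 5.35e-05). RNA levels say nothing of the amount of the protein or of its place in the cell.

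Membrane proteins of the lysosome rose in 6 of 10 genes in Gr1-positive cells and in 4 of 10 in Gr1-negative cells. Lamp1 and Lamp2 are its most abundant membrane proteins, commonly used as markers of the compartment. Lamp1 read 12.26, 12.37 and 12.40 in Gr1-positive cells at day 1, 12.33, 12.41 and 12.36 at day 2, 12.53, 12.50 and 12.51 at day 4, and 12.43 at day 8. On the Gr1-negative side the arrays read 12.29, 12.42 and 12.33, then 12.43, 12.44 and 12.53, then 12.39, 12.55 and 12.49, and 12.35, 12.43 and 12.48 at day 8. Its differences between days 1 and 4, 0.17 ± 0.07 and 0.13 ± 0.07, did not pass (limma adjusted p = 0.0908 and 0.198).

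Lamp2 read 12.30, 12.24 and 12.37 in Gr1-positive cells at day 1, 12.25, 12.11 and 11.98 at day 2, 12.23, 12.20 and 11.99 at day 4, and 12.14 at day 8. In Gr1-negative cells it read 12.01, 12.22 and 12.17, then 12.17, 12.05 and 12.16, then 12.10, 12.28 and 12.16, and 12.04, 12.20 and 12.25 at day 8. Its days overlapped in Gr1-negative cells, and the differences of -0.16 ± 0.09 and 0.05 ± 0.09 did not pass (limma adjusted p = 0.255 and 0.746).

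Mcoln1, the calcium channel of the lysosome, read 9.94, 10.19 and 10.44 in Gr1-positive cells at day 1, 10.28, 10.59 and 10.60 at day 2, 10.62, 10.79 and 10.80 at day 4, and 10.39 at day 8. The Gr1-negative arrays read 10.36, 10.43 and 10.56, then 10.77, 10.93 and 10.90, then 10.59, 10.67 and 10.66, and 10.56, 10.38 and 10.42 at day 8. The Gr1-negative arrays peaked at day 2. It rose by 0.55 ± 0.11 by day 4 in Gr1-positive cells (limma adjusted p = 0.00103), while 0.19 ± 0.11 in Gr1-negative cells did not pass (0.239). The difference between the subsets changed by -0.36 ± 0.16 over those days, which did not pass.

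Scarb2, which carries glucocerebrosidase to the lysosome, read 10.01, 10 and 10.30 in Gr1-positive cells at day 1, 9.83, 10.25 and 10.31 at day 2, 10.75, 10.57 and 10.76 at day 4, and 10.59 at day 8. Its Gr1-negative arrays read 9.94, 10.18 and 10.39, then 10.15, 10.36 and 10.61, then 10.75, 10.88 and 10.90, and 10.59, 10.85 and 10.99 at day 8. It gained mostly after day 2 and was still high at day 8. By day 4 it rose by 0.59 ± 0.15 and 0.67 ± 0.15, with limma adjusted p-values of 0.0052 and 0.00208.

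The tetraspanin gene Cd63 read 11.50, 11.48 and 11.40 in Gr1-positive cells at day 1, 12.16, 11.88 and 11.84 at day 2, 12.26, 12.01 and 11.93 at day 4, and 11.39 at day 8. Among Gr1-negative cells the readings were 11.77, 11.93 and 11.73, then 12.26, 12.10 and 12.18, then 12.08, 12.33 and 12.09, and 11.89, 12.05 and 12.24 at day 8. It rose by 0.61 ± 0.11 and 0.36 ± 0.11 by day 4, with limma adjusted p-values of 0.000434 and 0.0254. Ctns, which exports cystine, rose by 0.60 ± 0.13 and 0.70 ± 0.13, and Laptm5 by 0.20 ± 0.07 and 0.23 ± 0.07. Cln3, a membrane protein whose loss causes a childhood neurodegeneration, rose by 0.38 ± 0.10 in Gr1-positive cells. The cholesterol transporter Npc1 and the macrophage marker Cd68 passed in neither subset, with differences between -0.14 and 0.05.

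Most of these calls held in every alternative run, which are listed with the processing and include each array left out in turn. That was so for 21 of 26 in Gr1-positive cells, the others being Asah1, Atp6v0a1, Atp6v0d1, Cln3 and Laptm5. It was so for 15 of 23 in Gr1-negative cells, the others being Asah1, Atp6v1f, Cd63, Gusb, Laptm5, Lipa, Npc2 and Tpp1. Tested as a change of the difference between the subsets over these days, none of the 45 members passed in limma (0.0953% of all genes did), and 2 were lower at an unadjusted p under 0.05, as 2.99% of all genes were.

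Promoter sequences bear on Tfeb, since its family binds the letters CACGTG, best when preceded by T. The 250 bases before the start of each gene were taken from RefSeq (GRCm38.p6) and searched on both strands for CACGTG and for TCACGTG, which contains it. Of the 45 genes 38 had an entry, with 43 promoters, and 11 of the 38 held CACGTG, each of them within TCACGTG. That is 25.6% of the members' promoters, where 6.02% of the 32851 promoters in the table hold CACGTG and 3.13% hold TCACGTG. The 11 genes were Atp6v0b, Atp6v1a, Gaa, Gla, Glb1, Naglu, Sgsh, Arsa, Lamp1, Mcoln1 and Cln3. A match says only that the letters are in this window. Of the 15 genes with an entry that rose in both subsets 3 held the motif, of the 2 that fell in either none did, and of the other 21, 8 did. The 4 promoters below belong to genes that held the motif and rose most from day 1 to day 4 in Gr1-positive cells, and are printed 5′ to 3′ along each gene, with TCACGTG or its reverse complement in capitals.
Sgsh: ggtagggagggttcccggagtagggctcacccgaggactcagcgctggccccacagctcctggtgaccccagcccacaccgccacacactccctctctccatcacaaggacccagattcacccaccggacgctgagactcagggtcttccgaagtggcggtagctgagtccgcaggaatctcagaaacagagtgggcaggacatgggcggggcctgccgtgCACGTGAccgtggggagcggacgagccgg
Naglu: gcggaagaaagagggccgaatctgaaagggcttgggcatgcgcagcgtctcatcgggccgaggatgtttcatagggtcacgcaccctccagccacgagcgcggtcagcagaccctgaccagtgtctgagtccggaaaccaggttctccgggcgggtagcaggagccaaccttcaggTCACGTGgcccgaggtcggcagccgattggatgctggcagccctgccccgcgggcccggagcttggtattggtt
Glb1: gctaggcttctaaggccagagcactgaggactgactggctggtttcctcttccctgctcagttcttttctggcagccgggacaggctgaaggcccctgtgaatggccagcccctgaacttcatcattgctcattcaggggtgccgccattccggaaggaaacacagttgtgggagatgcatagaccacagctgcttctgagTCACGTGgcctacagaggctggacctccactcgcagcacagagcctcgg
Gaa: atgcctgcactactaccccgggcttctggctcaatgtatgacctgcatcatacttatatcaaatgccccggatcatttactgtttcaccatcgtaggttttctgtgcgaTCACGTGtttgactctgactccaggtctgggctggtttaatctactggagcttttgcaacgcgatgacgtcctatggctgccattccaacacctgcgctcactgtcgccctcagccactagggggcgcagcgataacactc

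In the order printed, they lie at chr11:119355511-119355760 on the minus strand, chr11:101069844-101070093 on the plus strand, chr9:114400828-114401077 on the plus strand and chr11:119267713-119267962 on the plus strand. Counted from its first letter, the stretch in capitals begins 29 bases before the start in Sgsh, 74 in Naglu, 49 in Glb1 and 141 in Gaa. Sgsh carries it as the reverse complement, CACGTGA, and the other 3 as TCACGTG. All 4 genes rose by day 4 in Gr1-positive cells, and Sgsh, Naglu and Glb1 in Gr1-negative cells as well. Lamp1, Arsa, Gla, Atp6v0b and Atp6v1a, which also hold the motif, passed in neither subset over the same days.

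The steps between days show when the members moved. These steps share the arrays of day 2, and with the net change those of days 1 and 4, so that they are not independent of it. In Gr1-negative cells 13 members had risen by day 2 and none fell, where 3.80% of all genes rose and 1.08% fell. Among the bright genes 5.64% rose and 2.88% fell, and the median of the members was 0.25 against 0.02. The 13 include 6 of the 14 pump members, Atp6v0d2 (1.78 ± 0.37, limma adjusted p = 0.00884), Atp6v0a1 (0.50 ± 0.08, 0.00283), Atp6v1a (0.51 ± 0.10, 0.00681), Atp6v1f, Atp6v1g1 and Atp6v1b2. Sgsh (0.96 ± 0.21, limma adjusted p = 0.0155), Naglu (0.92 ± 0.18, 0.00699), Smpd1, Hexa, Mcoln1, Tfeb and Tpp1 make up the rest. Over this step in Gr1-negative cells T and NK and dendritic cell markers had medians of -0.31 and -0.29. Means per array of mast cell and eosinophil markers were 6.79 to 7.92, then 6.65 to 7.06. Those of neutrophil markers were 7.16 to 7.54, then 7.06 to 7.26, and those of macrophage markers 11.65 to 11.81, then 11.73 to 11.96. The part of these marker changes in the lysosomal result was not tested. The count was 4 without day 1 Gr1-negative replicate 1 (1.44% of all genes) and 3 without day 2 Gr1-negative replicate 2 (0.808%). It was 6 without day 2 Gr1-negative replicate 3 (1.59%), where the main fit called 4.88% of all genes. Only Atp6v0a1 and Hexa were called in every alternative.

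In Gr1-positive cells none of the 45 members passed from day 1 to day 2 in limma, where 0.160% of all genes rose and 0.130% fell, and 14 were higher at an unadjusted p under 0.05, as 7.54% of all genes were. The median was 0.13 against 0.06 over all genes. Without day 2 Gr1-positive replicate 1, the array that stood apart, 5 members were called (4.79% of all genes). Without both day 2 arrays numbered 1 there were 6 (6.14%), and without day 1 Gr1-positive replicate 3 there were 2 (1.3%). Over the 17 members that rose in both subsets by day 4, the part of the log2 rise already present at day 2 had a median of 38.0% in Gr1-positive cells (-11.6% to 82.5%). In Gr1-negative cells the median was 61.2% (8.8% to 124.8%), and the part was larger there for 16 of the 17, all but Laptm5. These shares are a description with no test, and the same shares over all genes are not given here. Among all genes, too, a larger part rose by day 2 in the Gr1-negative subset, 3.80% against 0.160%. The Gr1-positive shares include the day 2 array that stood apart. Whether this timing is particular to the members was not tested.

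From day 2 to day 4 in Gr1-positive cells 12 members rose and 4 fell, where 11.8% of all genes rose and 7.44% fell. Among the bright genes 13.9% rose and 22.3% fell. Of the 14 pump members 4 fell, 1 rose and 9 did not pass, and of the 31 others 11 rose. The largest gains were those of Arsb (1.44 ± 0.28, limma adjusted p = 0.00107), Sgsh (1.24 ± 0.21, 0.000437) and Atp6v0d2 (1.08 ± 0.37, 0.0446), the last lost without any of 4 of the 6 arrays compared (adjusted p from 0.088 to 0.182). Atp6v1h fell by 0.66 (SE 0.11), Atp6v1c1 by 0.56 (SE 0.10), Atp6v1e1 by 0.50 (SE 0.08) and Atp6v0d1 by 0.37 (SE 0.09). Of the 16 calls, 10 held in every alternative, and the exceptions were Atp6v0d1, Atp6v0d2, Gaa, Scarb2, Tfeb and Tpp1. T and NK cell markers rose in 10 of 11 genes over this step, and their part in the result was not tested.

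In Gr1-negative cells 4 members rose from day 2 to day 4 and 10 fell, where 8.15% of all genes rose and 6.69% fell, and 9.86% and 19% of the bright genes. The median of the members and that of all genes were both -0.07. Of the 14 pump members 8 fell, among them all 3 just named from V1, with Atp6v1h down by 0.74 (SE 0.11, limma adjusted p = 0.000167), Atp6v1c1 by 0.70 (SE 0.10, 0.000119) and Atp6v1e1 by 0.49 (SE 0.08, 0.000413). Atp6v1g1, Atp6v0d1, Atp6v1a, Atp6v0a1 and Atp6v1b2 fell by 0.48, 0.42, 0.41, 0.33 and 0.29. Gla and Npc1 also fell, each by 0.29, and Scarb2 (0.47 ± 0.15), Man2b1 (0.43 ± 0.09), Tfeb (0.32 ± 0.11) and Laptm5 (0.21 ± 0.07) rose. Atp6v1a, Atp6v1b2, Atp6v1g1 and Atp6v0a1 were among the genes that had risen by day 2, and their differences between day 1 and day 4 did not pass. Over this step 6 of 10 dendritic cell markers rose (means of 8.29 to 8.69, then 9.24 to 9.85), as did 6 of 11 T and NK cell, 5 of 13 muscle and 2 of 9 fibroblast markers. Their part in the result was not tested. The count of 14, where 14.8% of all genes were called, was 8 without day 2 Gr1-negative replicate 2 (11.4%). It was 8 without day 4 Gr1-negative replicate 2 (12.8%) and 9 without day 4 Gr1-negative replicate 3 (10%). The calls of Atp6v0d1, Atp6v1a, Atp6v1c1, Atp6v1e1, Atp6v1g1, Atp6v1h and Man2b1 held in every alternative.

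After day 4, in Gr1-negative cells, 7 members fell by day 8 and none rose, where 7.34% of all genes fell and 3.17% rose. Among the bright genes 12.5% fell and 6.79% rose, and the median of the members was -0.12 against 0.00. Naglu fell by 0.74 (SE 0.18, limma adjusted p = 0.0173), Glb1 by 0.73 (SE 0.19, 0.0214) and Smpd1 by 0.62 (SE 0.17, 0.0322), and Ppt1, Atp6v1f, Cln3 and Man2b1 by 0.43 to 0.32. None of these 7 calls held in every alternative. There were 2, 2 and 3 members called without day 4 Gr1-negative replicates 1, 2 and 3 (2.62%, 4.15% and 6.61% of all genes). There were 0, 1 and 12 without day 8 Gr1-negative replicates 1, 2 and 3 (2.97%, 2.74% and 12.9%). The main fit called 10.5% of all genes over this step. Means per array of fibroblast markers were 7.09 to 8.63 at day 4, then 7.28 to 10.02 at day 8. Those of T and NK cell markers were 7.97 to 9.12, then 8.89 to 9.75, and those of dendritic cell markers 9.24 to 9.85, then 8.96 to 9.48. Macrophage marker means were 12.05 to 12.08, then 11.94 to 12.15. The part of these marker changes in the lysosomal result was not tested. The Gr1-positive cells of day 8 have a single array, with no spread of its own, so that SE and p assume it to vary as arrays of other groups do. On that assumption 9 members were lower than at day 4, where 4.62% of all genes and 11.8% of the bright genes were and 1.58% of all genes were higher, with a median of -0.26 against -0.03. Glb1 was lower by 1.12 there (-1.12 ± 0.26, limma adjusted p = 0.0196), Naglu by 1.08 (-1.08 ± 0.26, 0.02) and Ppt1 by 0.71 (-0.71 ± 0.14, 0.00888). Without day 4 Gr1-positive replicate 1 the count was 3 (2.5% of all genes, against 6.21% in the main fit). Naglu and Ppt1 were called in every alternative. Neutrophil marker means per array were 7.01 to 7.59 at day 4 and 7.78 in the array of day 8. Those of B cell markers were 6.49 to 6.63 and 7.03, of dendritic cell markers 8.62 to 8.87 and 8.22, and of macrophage markers 11.95 to 12.07 and 11.82. Their part in the result was not tested.

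Over the whole course in Gr1-negative cells, 10 members were higher and 4 lower at day 8 than at day 1, where 8.68% of all genes were higher and 9.77% lower. Among the bright genes 11.4% were higher and 25.9% lower. Atp6v0d2 (1.58 ± 0.37, limma adjusted p = 0.00445), Arsb (1.11 ± 0.28, 0.00787) and Sgsh (0.94 ± 0.21, 0.00422) kept the largest gains, and Scarb2, Lipa, Hexa, Tfeb, Ctns, Man2b1 and Laptm5 were higher by 0.64 to 0.22. The 4 that were lower were Atp6v0d1, Atp6v1e1, Atp6v1c1 and Atp6v1h, by 0.46, 0.41, 0.38 and 0.35. In each of these 14 but Ctns, the arrays of day 8 did not overlap those of day 1. The 14 were picked by the test on the same arrays, so that this describes them and adds no support. Over these days 7 of 9 fibroblast markers and 9 of 11 T and NK cell markers rose in the same samples, and their part in the result was not tested. The count was 9 without day 8 Gr1-negative replicate 2 (13.4% of all genes, against 18.4% in the main fit). In every alternative 8 calls held (Atp6v0d1, Atp6v0d2, Atp6v1e1, Hexa, Man2b1, Scarb2, Sgsh and Tfeb).

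The 2 subsets differed most at day 2. The median difference of the members, Gr1-negative minus Gr1-positive, was then 0.17, against -0.03 over all genes. At that day 3 members passed, all higher in Gr1-negative cells, where 2.85% of all genes were higher and 0.682% lower, and 2.61% and 1.88% of the bright genes. Smpd1 was 1.66-fold higher (0.73 ± 0.17, limma adjusted p = 0.026), Tpp1 1.33-fold (0.41 ± 0.10, 0.0305) and Atp6v0a1 1.38-fold (0.46 ± 0.08, 0.00574). The arrays of all 3 genes did not overlap, which adds no support, since the test that picked them used the same arrays. Atp6v0a1 read 10.98, 11.15 and 10.89 in the Gr1-positive arrays of day 2 and 11.42, 11.57 and 11.42 in the Gr1-negative ones. At the other days its arrays read 10.74, 10.86 and 10.84 against 10.94, 10.99 and 10.98 at day 1, 11.16, 10.98 and 11.22 against 11.13, 11.07 and 11.22 at day 4, and 10.62 against 11.06, 10.96 and 11.08 at day 8.

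The labels do not say that both subsets of a replicate number came from the same mice, but arrays with the same number within a day deviated together. With day and number as a block 15 members were higher at day 2, where 9.76% of all genes were. These 15 were the 3 above with Atp6v0d2 (1.12 ± 0.16, limma adjusted p = 0.000763, against 0.102 without the block), Arsb (0.84 ± 0.20, 0.0164 against 0.11), Naglu (0.58 ± 0.08, 0.000908 against 0.0897), Glb1 (0.57 ± 0.08, 0.00106 against 0.106), Sgsh, Gaa, Mcoln1, Gusb, Lipa, Hexa, Atp6v1a and Atp6v1g1. Tfeb, with 0.01 ± 0.11, did not pass in either fit. At day 2 the Gr1-negative cells had higher values of 6 of 10 dendritic cell markers (means of 8.29 to 8.69 against 7.2 to 7.59) and lower values of 4 of 14 neutrophil markers (7.06 to 7.26 against 7.72 to 7.88), and their part in the lysosomal difference was not tested. Without the block, 3.54% of all genes were called at day 2. The count of 3 was 1 without day 2 Gr1-positive replicate 1 (1.81%) and 1 without day 2 Gr1-positive replicate 3 (1.19%). It was 0 without day 2 Gr1-negative replicate 2 (0.612%) and 1 without day 2 Gr1-negative replicate 3 (0.993%).

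At day 1 and at day 4 no member passed between the subsets in limma, where 0.858% and 0.717% of all genes did, and the median was 0.04 on each day. At an unadjusted p under 0.05, 7 members were higher at day 1, as were 6.13% of all genes, and 1 was lower at day 4, as were 5.18%. With the block Lipa (0.50 ± 0.09, limma adjusted p = 0.00865, against 0.245 without) and Gaa (0.36 ± 0.08, 0.0307 against 0.319) were the higher ones in Gr1-negative cells of day 1, where 3.00% of all genes were higher, and none at day 4. Without day 1 Gr1-positive replicate 3, 1 member was called at day 1, as were 1.12% of all genes. At day 8, against the single Gr1-positive array, Cd63 was higher by 0.67 ± 0.16 (limma adjusted p = 0.0368), where 1.33% of all genes and 2.46% of the bright genes were. In the same comparison 5 of 10 mast cell and eosinophil markers were higher (means of 7.16 to 8.16 against 6.1), as were 3 of 10 dendritic cell markers, 5 of 14 neutrophil markers were lower (6.69 to 6.77 against 7.78), and their part was not tested. That call was lost with the block (0.221), without day 8 Gr1-negative replicate 2 (0.0777) and without day 8 Gr1-negative replicate 3 (0.114).

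**Figure D4:**
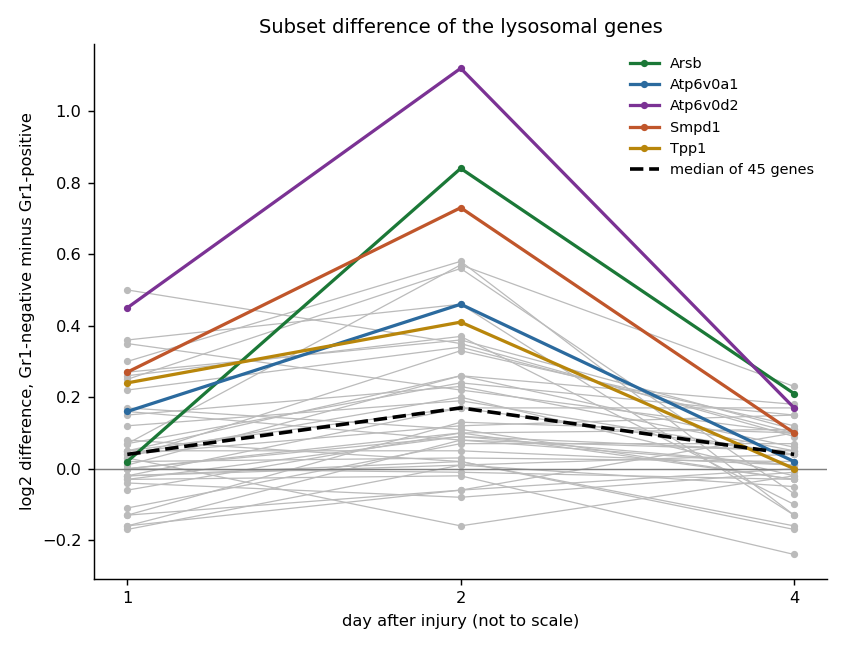
Log2 difference between Gr1-negative and Gr1-positive cells (y axis) at days 1, 2 and 4 after injury (x axis, not to scale) for the 45 measured genes, each a line; the 5 genes with the largest values or calls at day 2 are coloured and the dashed line is the median. The median is 0.17 at day 2 and 0.04 at days 1 and 4, and Atp6v0d2 reaches 1.12 at day 2.

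From day 2 to day 4 the subset difference changed by a median of -0.14 over the members, against -0.02 over all genes. No member passed for this change in limma, where 0.0150% of all genes did, and 6 were lower at an unadjusted p under 0.05, as 3.65% of all genes were. With the block 3 passed, where 0.697% of all genes were lower, namely Naglu, Smpd1 and Gaa.

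Other genes of the pathway, from lists written with earlier results of these data known, moved over days 1 to 4 as follows. Of 18 further genes, mostly of lysosomal hydrolases, 15 rose and 1 fell in Gr1-positive cells, and 12 rose and 1 fell in Gr1-negative cells. The medians were 0.60 and 0.53. Pla2g15, a lysosomal phospholipase, rose by 1.73 ± 0.21 and 1.75 ± 0.21, and the hyaluronidase gene Hyal2 fell by 0.31 (SE 0.10) and 0.74 (SE 0.10). Among 18 further membrane proteins 8 rose and 1 fell, and 9 rose and 1 fell, with the channel genes Mcoln3 (1.75 ± 0.27 and 1.73 ± 0.27) and Tpcn1 (1.51 ± 0.19 and 1.47 ± 0.19) in front. In the sorting of hydrolases to the lysosome, 4 of 12 genes rose and 2 fell, and 3 rose and 2 fell. The sorting receptor gene Sort1 rose by 0.86 ± 0.13 and 1.06 ± 0.13, while the mannose 6-phosphate receptor gene Igf2r fell by 0.83 (SE 0.23) and 1.11 (SE 0.23). Gnptab, whose enzyme starts the mannose 6-phosphate tag, fell by 0.47 (SE 0.13) and 0.51 (SE 0.13).

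Counts among the regulators and autophagy genes were near or below the shares over all genes. Those shares were 16.2% rising and 9.42% falling in Gr1-positive cells, and 15.5% and 8.67% in Gr1-negative cells. Of 19 genes of the TFEB family and its regulators, 3 rose and 1 fell in Gr1-positive cells and 2 rose and 2 fell in Gr1-negative cells. Rragd, a GTPase that links TFEB to the kinase mTORC1, rose by 0.42 ± 0.12 and 0.50 ± 0.12, and Zkscan3, a repressor of lysosomal genes, by 0.38 ± 0.11 and 0.56 ± 0.11. Of 17 autophagy genes 2 rose and 2 fell in Gr1-positive cells, and 3 rose and 1 fell in Gr1-negative cells. The kinase gene Ulk1, which starts autophagy, rose by 0.66 ± 0.10 and 0.58 ± 0.10, and Rab7, which guides vesicles to the lysosome, fell by 0.20 (SE 0.07) and 0.32 (SE 0.07). The cathepsins, the proteases of the same compartment, rose in 5 of 14 and 4 of 14 genes with medians of 0.24 and 0.21, and the members outside the pump in 20 of 31 and 18 of 31, a difference that was not tested.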

How the data were processed

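RNA of 22 sorted cell samples was measured on Affymetrix arrays. The authors deposited 1 log2 value per probe set and array, made by RMA per the submitters' processing notes. Its version, background handling and annotation are not given in the sources used here. Of 35556 probe sets, 21789 named 1 gene and were kept, and 1621 naming several were dropped. Entrez numbers gave current RefSeq names, and the probe set with the highest mean stood for a gene, leaving 19938 genes. RMA sets all arrays to 1 distribution, so differences are relative to each array as a whole.

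Groups came from the sample titles. One mean per group was fitted with limma 3.58.1 (R 4.3.3; lmFit and eBayes) to all 22 arrays, with Benjamini-Hochberg adjustment over 19938 genes. The fit was tested on simulated data. P-values measure the spread between samples labelled biological replicates.

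The members and gene lists were chosen with earlier results of these data known. Array values are given for the 3 members with the largest change among the calls in each direction of a comparison, and for Tfeb, Lamp1, Lamp2, Mcoln1, Atp6v0d1 and Atp6v0d2. Of the other pathway lists, genes among the 2 largest calls in each direction are named. Promoters are of the 4 members with a motif and the largest changes.

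Alternatives were the mean of all probe sets, dim genes left out, a further quantile normalization, array quality weights, a fit of the compared groups alone, replicate numbers as a block, and leaving out each array or both day 2 arrays numbered 1.

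Same-numbered arrays of a day deviated together from their group means, in 8 of 9 pairs with a correlation over 0.1 over all genes (0.098 to 0.646), and in 9 of 9 over genes at or above the median signal (0.246 to 0.864). They were treated as paired within a day on this basis alone, since the labels do not state that both subsets came from the same mice. Over days, 12 of 27 pairs were over 0.1, and numbers were not taken as pairs. Figures were drawn with matplotlib 3.10.9.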

Additional observations from a re-analysis of the deposited data

Results flagged for a closer look

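With day and replicate number as a block, the difference between Gr1-negative and Gr1-positive cells changed between day 2 and day 4 for 3 members. Naglu changed by -0.71 (limma adjusted p = 0.0182, against 0.651 without the block), Smpd1 by -0.63 (0.0455 against 0.72) and Gaa by -0.59 (0.0358 against 0.548). For Naglu the difference went from 0.58 at day 2 to -0.13 at day 4, for Smpd1 from 0.73 to 0.10, and for Gaa from 0.46 to -0.13. Dendritic cell markers, 6 of 10 of which passed as higher in the Gr1-negative subset on day 2, move with the same groups, and their part in this change was not tested.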

How the results depend on the processing

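No call of a single member reversed in any alternative, and of 1528 repeats of the 126 calls 243 lost the call. The alternatives reused the arrays behind the calls, so that a reversal was unlikely from the start. With array quality weights 1 member was called between the subsets at day 1 (1.54% of all genes), 19 at day 2 (15.3%) and 5 at day 8 (7.33%). The same weights gave 9 from day 1 to 2 in Gr1-positive cells (9.24%), and 25 from day 2 to 4 (30.9%) and 14 from day 4 to 8 (24%) in Gr1-negative cells, so that calls over all genes rose as well. With dim genes left out 5 were called between the subsets at day 2 (8.19% of the genes left) and 2 from day 1 to 2 in Gr1-positive cells (1.25%). With a further quantile normalization 1 was called over that step (0.567% of all genes). Fitting the compared groups alone gave 1 member at day 2 and 0 at day 8 between the subsets, 4 from day 4 to 8 in Gr1-positive cells and 9 from day 1 to 8 in Gr1-negative cells. Those fits called 1.88% of all genes between the subsets at day 2, 0.125% at day 8, and 14.6% from day 1 to 8 in Gr1-negative cells. From day 4 to 8 in Gr1-positive cells the share was 6.16%, where the main fit called 9 members and 6.21% of all genes. At day 8 the main fit called 2.03% between the subsets. Without both day 2 arrays numbered 1, the counts were 1 between the subsets at day 2 (1.54% of all genes) and 6 from day 1 to 2 in Gr1-positive cells (6.14%).

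The day and number block gave 2 members at day 1, 15 at day 2 and 0 at day 8, and 3 for the change of the difference from day 2 to 4; at day 4 and for the change from day 1 to 4 it changed no count. Of all genes the day and number block called 3.75% at day 1, 11.9% at day 2 and 0.958% for the change from day 2 to 4. Number as a block across days, which does not rest on a pairing in the data, gave 5 from day 1 to 2 in Gr1-positive cells (1.48% of all genes). It moved no other count between days by over 1.5 times.

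Leaving out 1 array gave 0 to 1 members between the subsets at day 1, 0 to 4 at day 2 and 0 to 1 at day 8. In Gr1-positive cells it gave 0 to 5 from day 1 to 2 and 3 to 7 from day 4 to 8. In Gr1-negative cells it gave 3 to 14 from day 1 to 2 (0.808% to 6.45% of all genes), 8 to 10 from day 2 to 4 (10% to 12.8%) and 0 to 12 from day 4 to 8 (2.62% to 12.9%). It gave 9 to 14 from day 1 to 8 (13.4% to 17.6%) and 15 to 20 from day 1 to 4 (18.9% to 23.7%). Of all genes, 0.361% to 1.12% were called between the subsets at day 1 and 0.612% to 4.78% at day 2. From day 1 to 2 in Gr1-positive cells 0.0201% to 4.79% were, and from day 4 to 8 in these cells 2.5% to 6.44%. Between the subsets at day 8 the share was 0.802% to 3.65%. The causes were not tested. With 3 arrays a group, and 1 for Gr1-positive cells at day 8, small differences cannot be resolved.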
